A study of Homo sapiens with 9 samples.

Results

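The lysyl oxidases and collagen hydroxylases are enzymes that modify collagen, and 10 of their genes were followed here: LOX, LOXL1, LOXL2, LOXL3 and LOXL4, the lysyl hydroxylase genes PLOD1, PLOD2 and PLOD3, and P4HA1 and P4HA2, which encode alpha subunits of prolyl 4-hydroxylase. They were picked by gene symbol, a rule that uses no measured value, from the 60708 genes listed in the files, though with earlier results of these data known. All 10 were found once and all 10 were abundant enough to be tested. According to the study, the cells were MDA-MB-231, a triple-negative breast cancer cell line. The study describes no treatment of the cells used for RNA sequencing. The study compared wild-type cells (labelled WT, 3 libraries) with the SNAI1-KO clones CS16 (3 libraries) and CS19 (3 libraries), in which the gene of the transcription factor SNAI1 was targeted with CRISPR/Cas9. Each clone grew out of a single cell after puromycin selection, so the 3 libraries of a clone are repeats of 1 line and the difference between a clone and WT holds whatever else sets that clone apart. No label states that the libraries of a group came from separate cultures, so p-values measure the spread between these libraries, which may be technical.

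Lysyl oxidases are copper-dependent enzymes that act outside the cell, where they oxidize lysines of collagen and elastin so that the fibres become crosslinked. Before that, in the endoplasmic reticulum, prolyl 4-hydroxylase hydroxylates prolines, which keeps the collagen triple helix stable, and lysyl hydroxylases hydroxylate lysines that later take part in crosslinks and carry sugars. LOX, LOXL2, LOXL4, PLOD2, P4HA1 and P4HA2 are known as hypoxia-induced genes in many cells, and LOXL2 and LOXL3 are known as proteins that bind SNAI1.

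The libraries held 19527195 to 28627777 counted read pairs, and a count of 3, taken as the floor of detection, corresponded to 0.105 to 0.154 CPM (counts scaled to the total of the library). The lowest count of any of the 10 genes was 10. SNAI1 itself was counted 16, 38 and 21 times in the WT libraries, 26, 40 and 49 times in CS16 and 57, 94 and 94 times in CS19. Its count was therefore not lower in the libraries labelled SNAI1-KO (log2 fold change 0.89, SE 0.42, edgeR adjusted p = 0.0838). In CS19 alone it passed as higher (1.32, SE 0.42, edgeR adjusted p = 0.031), and without WT-2 it did so in both clones together (1.40, SE 0.44, edgeR adjusted p = 0.0146). Counts over the whole gene do not show a small deletion. The study itself reports lower SNAI1 mRNA in both clones by quantitative PCR of each exon, and immunoblots without detectable SNAI1 protein. From its aligned reads it also reports deletions within the SNAI1 gene. The lower mRNA is not seen in the counts given here. The 9 libraries also differed in genes that mark the line. All 9 MDA-MB-231 markers reported were lower in the libraries labelled SNAI1-KO, where their summed level was 350 to 421 CPM against 9344 to 12516 CPM in WT, and CD44 and S100A6 were at 0 to 2 counts in every one of those 6 libraries. CDKN2A, CDKN2B and MTAP, neighbours on chromosome arm 9p, had 0 counts in all 3 WT libraries and 235 to 3137 counts in each CS16 and CS19 library. Neither the part of these differences in the results below nor the origin of those 6 libraries from MDA-MB-231 was tested. The groups are named here by their labels. Of the markers of other cell types, those of leukocytes were low, those of fibroblasts were mixed and those of mammary luminal cells were mostly lower in the clones. Leukocyte markers summed to 0.120 to 0.939 CPM in all libraries, with CD3E, MS4A1 and CD68 at 0 to 2 counts throughout. Fibroblast markers summed to 58.6 to 128 CPM in WT, 64.1 to 68.1 CPM in CS16 and 12.9 to 15.8 CPM in CS19, with DCN at 0 to 3 counts and FAP at 0 to 2 counts throughout. The sum joins markers that moved apart. COL3A1 went from 8 to 15 counts in WT to 1125 to 1386 in CS16 and 132 to 181 in CS19, and PDGFRA from 0 or 1 count to 26 to 75 in the clones, while PDGFRB went from 255 to 444 counts to 0 to 12 and COL1A2 to 0. Mammary luminal markers summed to 1464 to 2146 CPM in WT and to 56.5 to 99.0 CPM in the libraries of both clones, where KRT19 was at 0 or 1 count. Of the 7 luminal markers tested 6 were lower and FOXA1 was higher, at 0, 0 and 2 counts in WT, 63 to 86 in CS16 and 336 to 494 in CS19.

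The WT libraries were not alike, and this touches several of the enzymes. WT-2 differed from WT-1 and WT-3 in step with the GC content of a gene's exons: over 19622 genes, its deviation from the other WT libraries had a Spearman correlation with GC content of 0.64, against -0.66 and -0.44 for WT-1 and WT-3, whose comparison includes WT-2, and -0.22 to 0.24 for the 6 libraries of the clones, each set against the other libraries of its clone. The correlation is given as a description across genes, which are not independent. PLOD2 (exons of 35.8% GC), P4HA1 (40.2%) and LOX (40.8%) were in WT-2 at 0.404, 0.423 and 0.601 times their level in WT-1 and WT-3. PLOD1 (56.9%), PLOD3 (60.0%), LOXL1 (64.9%) and LOXL2 (56.3%) were there at 1.64, 1.80, 2.49 and 3.06 times that level. P4HA2 (45.7%), LOXL3 (54.5%) and LOXL4 (57.3%) lay between 0.901 and 1.06 times. Values without WT-2 are therefore given for the enzymes whose call or size depended on it, and for the listed genes named with a fold change that moved by over 1.5 times.

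The first comparison asked how the enzymes differed between the libraries labelled SNAI1-KO, both clones together, and WT. Its test treated the 6 SNAI1-KO libraries as separate samples, though each clone is 1 line. Of the 10 genes, 8 were lower and 1 was higher in SNAI1-KO at a Benjamini-Hochberg adjusted p below 0.05 in edgeR's quasi-likelihood test, and PLOD2 did not pass. Over all 19631 genes tested, 32.6% were lower and 31.1% higher by the same rule, so changes were common in these cells. With the study's cut-off of 2 on the size of the log2 fold change added, 4 of the 10 were lower (LOX, LOXL1, LOXL2 and LOXL4, against 14.3% of all genes tested) and 0 were higher (against 12.6%). The median log2 fold change of the 10 genes was -1.66, and that of all genes tested was -0.00. For PLOD2 and P4HA1 the levels of the 6 SNAI1-KO libraries overlapped those of the 3 WT libraries, and for the others they did not. The share of all genes tested without such overlap was not counted.

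**Figure D1:**
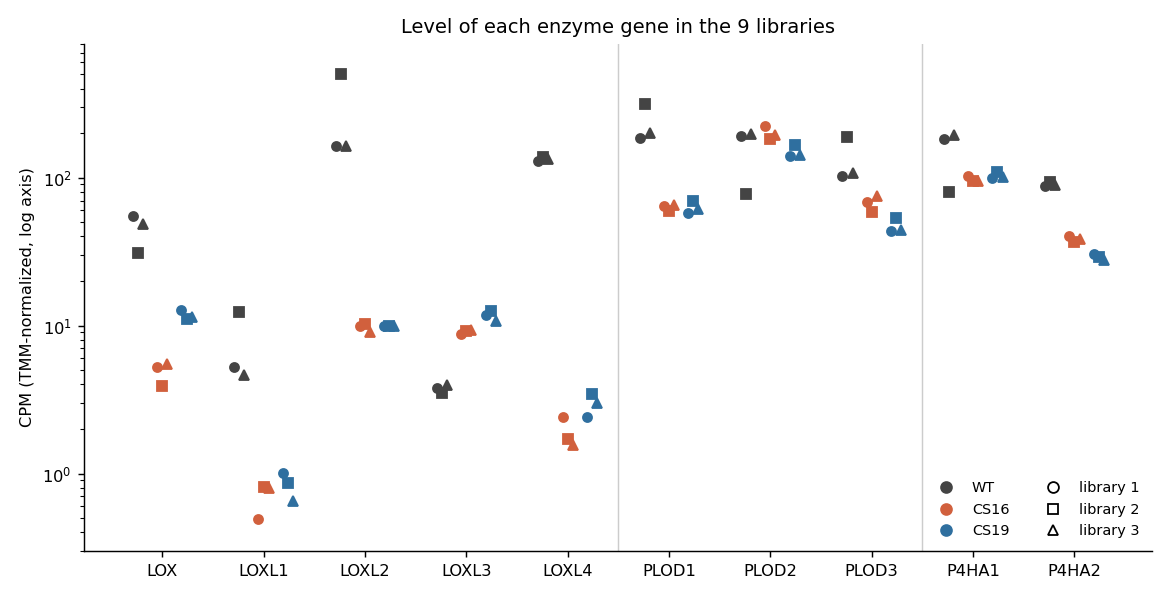
Level of each of the 10 genes (x axis) in CPM normalized by the trimmed mean of M-values (y axis, log scale), with 1 point per library, coloured by group and shaped by library number. LOXL4 falls from 129 to 138 CPM in WT to 1.55 to 3.43 CPM in the clones, LOXL3 lies higher in the clones, and WT-2 (dark square) stands apart from the other WT points for LOXL2, PLOD2 and P4HA1.

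LOXL4 (ENSG00000138131.4, chr10:98247690-98268194 on GRCh38, minus strand), a lysyl oxidase with scavenger receptor domains, changed the most. Its levels were 129, 138 and 134 CPM in WT, 2.41, 1.72 and 1.55 CPM in CS16 and 2.41, 3.43 and 2.98 CPM in CS19, from 36 to 91 read pairs in each library of the clones and 2408 to 2613 in each WT library. The WT libraries lay close together, WT-2 included, and every library of both clones was far below them. The log2 fold change in SNAI1-KO was -5.78 (SE 0.23, edgeR adjusted p = 2.42e-09), a level 55.0-fold lower.

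LOXL2 (ENSG00000134013.16), another lysyl oxidase with scavenger receptor domains, measured 164, 500 and 163 CPM in WT, 9.92, 10.3 and 9.09 CPM in CS16 and 9.93, 9.99 and 9.93 CPM in CS19. WT-2 thus held 3.06 times the level of the other two WT libraries, while the 6 libraries of the clones lay between 9.09 and 10.3 CPM, below every WT library. The log2 fold change was -4.80 (SE 0.32, edgeR adjusted p = 1.27e-07), and without WT-2 it was -4.05 (SE 0.08, edgeR adjusted p = 1.2e-11). LOXL2-AS1, a gene on the opposite strand that shares 178 exon bases with LOXL2 (2.97% of its exon length), was counted 63 to 215 times in WT and 4 to 11 times in the clones. Because strand was not used in the counting, read pairs of both genes cannot be told apart over the shared bases. ENTPD4, on the same strand and counted 769 to 1944 times, shares 120 exon bases with LOXL2 (2.01%). The part of either gene in the counts of LOXL2 was not tested.

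LOXL1 (ENSG00000129038.16, chr15:73925989-73952137, plus strand), known for its part in elastic fibre upkeep, was at 5.24, 12.4 and 4.63 CPM in WT, at 0.491, 0.812 and 0.797 CPM in CS16 and at 1.00, 0.869 and 0.656 CPM in CS19. These levels came from 90 to 217 read pairs in each WT library and 10 to 22 in each library of the clones, so the counts themselves are small. All 6 libraries of the clones lay below all WT libraries, with a log2 fold change of -3.26 (SE 0.33, edgeR adjusted p = 5.23e-06), or -2.68 (SE 0.24, edgeR adjusted p = 2.02e-06) without WT-2. The overlapping antisense gene LOXL1-AS1 shares 9.21% of the exon bases of LOXL1 and fell less (log2 fold change -0.93, SE 0.16, edgeR adjusted p = 0.00034).

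LOX (ENSG00000113083.15, chr5:122063195-122078413, minus strand), the enzyme after which the family is named, was at 55.1, 31.0 and 48.5 CPM in WT, 5.25, 3.92 and 5.50 CPM in CS16 and 12.7, 11.1 and 11.3 CPM in CS19. The libraries fell into 3 levels without overlap, WT above CS19 above CS16. Against WT the log2 fold change of both clones together was -2.43 (SE 0.35, edgeR adjusted p = 9.22e-05). WT-2 was the lowest WT library, and without it the value was -2.64 (SE 0.35).

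LOXL3 (ENSG00000115318.12, chr2:74532258-74555690, minus strand), a close relative of LOXL2, was the 1 gene of the 10 that rose. It stood in WT at 3.81, 3.49 and 3.96 CPM and was measured at 8.84, 9.22 and 9.32 CPM in CS16 and at 11.7, 12.5 and 10.8 CPM in CS19. All 6 libraries of the clones lay above all 3 WT libraries, by a log2 fold change of 1.47 (SE 0.19, edgeR adjusted p = 4.04e-05), or 2.77-fold. LOXL3 shares 13.5% of its exon bases with HTRA2 and 4.78% with DOK1, both on the opposite strand. HTRA2, which encodes a mitochondrial protease, also rose, by less (log2 fold change 0.72, SE 0.14, edgeR adjusted p = 0.000886), and DOK1 was measured at -0.41 (SE 0.22, edgeR adjusted p = 0.123). Their part in the counts of LOXL3 was not tested.

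By length, the make-up of the lysyl oxidase family turned over between the groups. TPM, a level scaled by the exon length of each gene as well as by the library, allows genes to be compared within 1 library. In WT, LOXL4 (103 to 132 TPM) and LOXL2 (74.9 to 287 TPM) held most of the family, and their order differed between WT-2 and the other WT libraries. LOX followed at 19.0 to 34.0 TPM, then LOXL1 at 3.50 to 11.7 TPM and LOXL3 at 2.41 to 2.91 TPM. LOXL3 thus took 0.956% ± 0.320 (SD, n = 3) of the summed lysyl oxidase TPM in WT, the smallest share in each of the 3 libraries. In the clones LOXL3 took the largest share in each of the 6 libraries, 38.5% ± 1.7 (SD, n = 3) in CS16 and 34.9% ± 1.4 (SD, n = 3) in CS19. LOXL4 went from 42.1% ± 11.3 in WT to 10.0% ± 2.2 in CS16 and 11.1% ± 1.9 in CS19 (SD, n = 3 each). In CS16 the ranges of LOXL3 (5.55 to 6.89 TPM) and LOXL2 (4.69 to 5.84 TPM) overlapped, though LOXL3 was the higher in every library. In CS19 LOX (5.49 to 7.01 TPM) came second to LOXL3 (6.44 to 9.11 TPM), and LOXL2 (4.49 to 5.50 TPM) was below both in every library. The sum over the 5 lysyl oxidases, in CPM per kilobase of exon, was 94.1 ± 32.4 in WT, 5.25 ± 0.10 in CS16 and 7.38 ± 0.28 in CS19 (SD, n = 3 each). The larger share of LOXL3 therefore stood in a far smaller total.

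**Figure D2:**
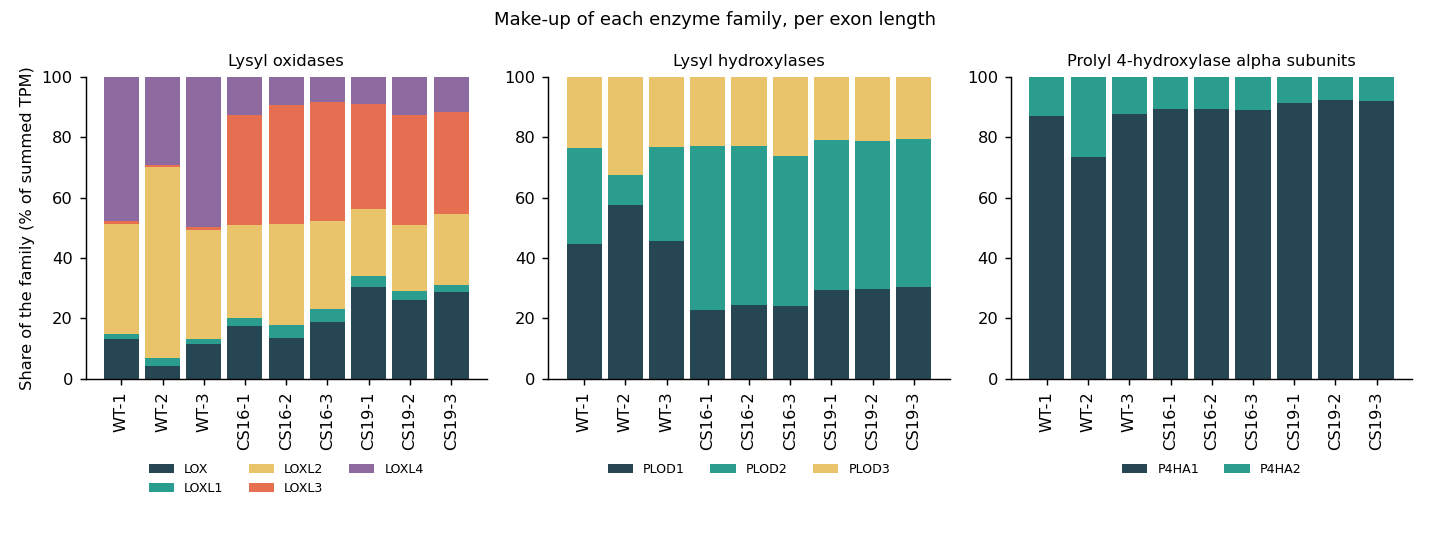
Share of each gene in the summed TPM of its enzyme family (y axis, percent) in each of the 9 libraries (x axis), for the lysyl oxidases, the lysyl hydroxylases and the prolyl 4-hydroxylase alpha subunits. LOXL3 goes from the smallest lysyl oxidase share in WT to 33.6% or more in every library of the clones, and PLOD2 from 9.88% to 31.9% of the lysyl hydroxylases in WT to 49.0% or more in the clones.

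The 3 lysyl hydroxylase genes differed from one another. PLOD1 (ENSG00000083444.17, chr1:11934205-11975538, plus strand), whose product hydroxylates lysines in the helical part of collagen, was at 185, 317 and 201 CPM in WT, at 64.8, 59.1 and 65.1 CPM in CS16 and at 57.4, 69.7 and 61.4 CPM in CS19. The libraries of both clones overlapped each other and lay below every WT library, with a log2 fold change of -1.89 (SE 0.17, edgeR adjusted p = 1.46e-06), or 3.72-fold lower. Without WT-2, its highest library, the value was -1.62 (SE 0.09). No other gene overlaps the exons of PLOD1.

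PLOD3 (ENSG00000106397.12, chr7:101205977-101218420, minus strand), whose product can hydroxylate lysines and also attach sugars to them, was at 103, 189 and 108 CPM in WT, 68.8, 58.8 and 75.2 CPM in CS16 and 43.8, 53.3 and 44.1 CPM in CS19. The 3 groups did not overlap, and CS19 was the lowest. The log2 fold change in SNAI1-KO was -1.22 (SE 0.23, edgeR adjusted p = 0.00067), and without WT-2 it was -0.88 (SE 0.19, edgeR adjusted p = 0.00145).

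PLOD2 (ENSG00000152952.12, chr3:146069440-146163653, minus strand), whose product hydroxylates lysines in the collagen telopeptides, was the exception among them. Its levels were 190, 78.0 and 197 CPM in WT, 222, 182 and 195 CPM in CS16 and 140, 166 and 143 CPM in CS19. WT-2 lay below every other library, and the remaining WT libraries lay within the range of CS16 and above CS19. The log2 fold change in SNAI1-KO was 0.17 (SE 0.27, edgeR adjusted p = 0.591), and it changed sign to -0.15 (SE 0.16, edgeR adjusted p = 0.435) without WT-2. Within the family, PLOD1 held the largest share by TPM in all 3 WT libraries, 49.4% ± 7.2 (SD, n = 3), and PLOD2 in all 6 libraries of the clones, 52.3% ± 2.2 in CS16 and 49.3% ± 0.4 in CS19 (SD, n = 3 each).

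P4HA1 (ENSG00000122884.13, chr10:73007217-73096974, minus strand), which encodes the main alpha subunit of prolyl 4-hydroxylase in most cells, was at 183, 79.8 and 194 CPM in WT, 103, 94.9 and 95.4 CPM in CS16 and 99.7, 109 and 100 CPM in CS19. WT-1 and WT-3 were above all libraries of the clones and WT-2 was below them all, so the groups overlapped through that single library. The log2 fold change was -0.60 (SE 0.23, edgeR adjusted p = 0.0353). Without WT-2 it was -0.92 (SE 0.08, edgeR adjusted p = 1.62e-06), while without WT-1 or WT-3 it was -0.45 or -0.37 and did not pass (edgeR adjusted p = 0.156 and 0.21).

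P4HA2 (ENSG00000072682.20, chr5:132190147-132295315, minus strand), the other alpha subunit gene, had tight groups: 88.3, 93.8 and 89.5 CPM in WT, 40.3, 36.6 and 38.2 CPM in CS16, and 30.5, 29.1 and 27.7 CPM in CS19. The groups did not overlap, and the log2 fold change in SNAI1-KO was -1.42 (SE 0.15, edgeR adjusted p = 6.1e-06). By TPM, P4HA1 was above P4HA2 in all 9 libraries, with 73.6% to 87.7% of their sum in WT, 89.1% to 89.5% in CS16 and 91.5% to 92.4% in CS19. The exon length of P4HA2 in the files, 10128 bases, merges the exons of all its transcripts, and a long merged length lowers its TPM.

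The second set of comparisons asked how far each clone differed from WT on its own. Both comparisons use the same 3 WT libraries, so their values are given side by side and are not independent. In CS16 against WT, 7 of the 10 genes were lower (28.6% of 18611 genes tested) and 1 was higher (27%). In CS19 against WT, 7 were likewise lower (26.6% of 18935 genes tested) and 1 higher (26.3%). LOXL3 was the higher gene in both, and PLOD2 and P4HA1 were the genes that passed in neither. P4HA1 was measured at -0.61 (SE 0.32, edgeR adjusted p = 0.148) in CS16 and at -0.53 (SE 0.32, edgeR adjusted p = 0.208) in CS19. Without WT-2 it passed in both, at -0.95 (SE 0.09) and -0.86 (SE 0.09), and in CS19 PLOD2 then passed as lower too, at -0.35 (SE 0.10, edgeR adjusted p = 0.00345) against -0.01 (SE 0.34, edgeR adjusted p = 0.988) with all libraries. LOXL4 had a log2 fold change of -6.11 (SE 0.25) in CS16 and -5.46 (SE 0.23) in CS19, and LOXL2 one of -4.79 (SE 0.52) and -4.75 (SE 0.52). Without WT-2 those of LOXL2 were -4.06 (SE 0.10) and -4.02 (SE 0.10). PLOD3 in CS16 was the call closest to the threshold, at -0.95 (SE 0.28, edgeR adjusted p = 0.0213).

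**Figure D3:**
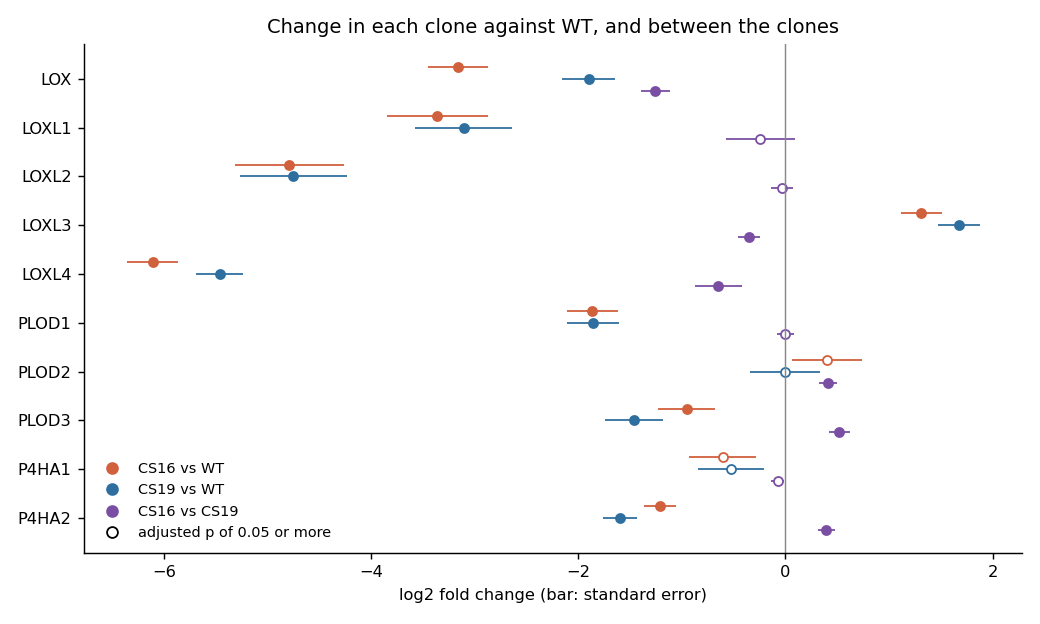
Log2 fold change of each gene (y axis) in CS16 against WT, CS19 against WT and CS16 against CS19 (x axis), with bars for the standard error and open points where the adjusted p was 0.05 or more. LOXL4 lies at -6.11 and -5.46 against WT, LOXL3 lies above 0 in both clones, and LOX has the largest difference between the clones, at -1.26.

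The third comparison, CS16 against CS19, tested the difference between the clones directly. It found 3 of the 10 genes lower in CS16 (LOX, LOXL3 and LOXL4), where 12.7% of 17538 genes tested were lower, and 3 higher in CS16 (PLOD2, PLOD3 and P4HA2), where 14.7% were higher. LOX had the largest difference, with a mean of 4.89 CPM ± 0.85 (SD, n = 3) in CS16 against 11.7 CPM ± 0.8 (SD, n = 3) in CS19, a log2 difference of -1.26 (SE 0.14, edgeR adjusted p = 2.42e-05). The other 5 were smaller. LOXL4 differed by -0.65 (SE 0.23, edgeR adjusted p = 0.0494) and LOXL3 by -0.36 (SE 0.11, edgeR adjusted p = 0.0231). PLOD3 differed by 0.52 (SE 0.10, edgeR adjusted p = 0.00162), PLOD2 by 0.41 (SE 0.08, edgeR adjusted p = 0.00268) and P4HA2 by 0.39 (SE 0.08, edgeR adjusted p = 0.00248). For LOXL4 the libraries of the clones came close, with the highest CS16 and the lowest CS19 library both at 2.41 CPM. For LOXL1 (-0.24, SE 0.34), LOXL2 (-0.03, SE 0.10), PLOD1 (-0.00, SE 0.08) and P4HA1 (-0.08, SE 0.07) no difference between the clones was detected, which does not show that they were equal. Where all 3 groups shared 1 estimate of the spread, LOX alone passed. Without CS19-1, without CS19-2 or without CS16-3, 1 gene was lower in CS16 instead of 3, and LOXL3 and LOXL4 were the calls lost. LOXL3 also lost its call without CS16-1. LOXL4, just inside the threshold, also lost its call without CS19-3 or CS16-2, with RLE normalization (edgeR adjusted p = 0.0507) and with a minimum of 10 counts in 3 libraries (edgeR adjusted p = 0.0504).

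The sequence before the start sites was searched for letters known to be bound by the SNAI1 family and by hypoxia-inducible factors, as a description of these genes. RefSeq windows of 300 bases, 250 before to 50 after an annotated start (GRCh38.p14), were at hand for 9 of the 10 genes. LOXL2 had none and was not searched. There were 12 windows because LOX has 3 and LOXL3 has 2. The motif of the SNAI1 family, CAGGTG or its complement CACCTG, was found in windows of LOXL4, of LOXL3 at its more downstream start, and of LOX at its more downstream starts, where the windows overlap and share 1 match. Of all 35116 windows, 20.6% hold it. The core of the hypoxia response element, ACGTG or its complement CACGT, was found in windows of LOX, PLOD2 and P4HA1, and 21.4% of all windows hold it. Both strands were searched, the motifs do not overlap here, and a match is not evidence of binding. The windows of LOXL1, PLOD1, PLOD3 and P4HA2 held neither. The matches before LOXL4 and LOXL3 are shown, each with 12 bases on both sides, because these are the genes with the largest fall and the single rise. Capitals mark the motif, and all stretches read 5′ to 3′ on the minus strand, which is the strand of these genes. They lie at chr10:98268346-98268375 for LOXL4 and chr2:74549557-74549586 for LOXL3, starting their capitals 169 and 48 bases before the start site.

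LOXL4: gggcgcccccgcCACCTGgcctgtgtcccg
LOXL3: caggtagagcatCACCTGcaagtggaggag

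For the hypoxia core, the window of the most upstream start of LOX held 4 matches, that of PLOD2 held 2 and that of P4HA1 held 1. LOX is shown with the match 185 bases before its start (chr5:122078428-122078456) and the one 42 bases before it (chr5:122078285-122078313), PLOD2 with the one 146 bases before (chr3:146161314-146161342) and P4HA1 with its one, 86 bases before (chr10:73096936-73096964). The 3 genes are set together because they share the motif and differ in the counts: LOX fell in both clones, PLOD2 did not pass the test, and P4HA1 fell in the pooled comparison.

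LOX at -185: gctccctgtgcaACGTGtctggggggagg
LOX at -42: gtaactttgcaaACGTGccagaaagttta
PLOD2: caaacagtccagACGTGgggcccaggagg
P4HA1: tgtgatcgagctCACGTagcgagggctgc

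The other genes of the pathway were read from lists by function, in SNAI1-KO against WT and with the same test. Of 16 genes for collagen modification and folding, 8 fell and 5 rose, and the median of their log2 fold changes was -0.54. These and the counts of the lists that follow stand beside 32.6% lower and 31.1% higher over all genes tested, so a share such as 5 of 16 is near that of all genes. P4HB, the beta subunit shared by the prolyl 4-hydroxylases, went from 10215 to 15533 counts in WT to 6255 to 8847 in the clones (log2 fold change -1.10, SE 0.17, edgeR adjusted p = 0.000154), and SERPINH1, the collagen chaperone HSP47, fell by 2.05 on the log2 scale (SE 0.19). Among the prolyl 3-hydroxylase family the members moved apart. P3H2 fell from 1209 to 1362 counts in WT to 27 to 53 in the clones (log2 fold change -5.22, SE 0.22), whereas P3H3 rose from 3 to 14 counts to 588 to 929 (6.03, SE 0.36), and P3H4, a family member that forms a complex with it, rose by 2.87 (SE 0.18). FKBP10, an endoplasmic reticulum prolyl isomerase that acts with lysyl hydroxylase 2, the product of PLOD2, rose the most in this list. It had 7, 10 and 7 counts in WT, 5456, 4987 and 7059 in CS16 and 4209, 4307 and 5290 in CS19 (log2 fold change 9.03, SE 0.32, edgeR adjusted p = 1.34e-09).

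Of 12 genes for collagen export and processing, 9 were higher and 3 lower, with a median of 1.20. ADAMTS3, a procollagen N-proteinase, had 33 to 48 counts in WT and 444 to 688 in the clones, and PCOLCE2, an enhancer of C-propeptide cleavage, had 34 to 77 in WT and 615 to 938 in the clones. BMP1, the C-proteinase that also activates LOX, fell by 2.46 on the log2 scale (SE 0.19, edgeR adjusted p = 4.62e-07), from 1196 to 1917 counts in WT to 258 to 407 in the clones, while its relative TLL1 had 0, 1 and 0 counts in WT and 41 to 71 in the clones. ADAMTS14 fell by 4.99 (SE 0.46; -4.21, SE 0.33, without WT-2) and MIA2, an export receptor gene, by 0.64 (SE 0.14).

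Of 18 substrates and partners of lysyl oxidases, 13 were abundant enough to be tested, with 6 higher, 6 lower and a median of -1.04. That median was the value of COL1A1, at 362 counts in WT-2 against 64 and 46 in the other WT libraries, and without WT-2 the median was 0.61. COL1A2, which encodes the alpha 2 chain of type I collagen, had 906, 1409 and 797 counts in WT and 0 in all 6 libraries of the clones, at least 376-fold lower with the floor of 3 counts per library. COL5A1, which encodes a chain of type V collagen, had 21073 counts in WT-2 against 5104 and 4415 in the other WT libraries and 482 to 754 in the clones. It fell by 4.36 (SE 0.44), and without WT-2 the log2 fold change was -3.13 (SE 0.10). FBN1, the microfibril gene fibrillin 1, fell by 2.43 (SE 0.19), and FBN2, fibrillin 2, had 0, 4 and 0 counts in WT and 2552 to 4595 in the clones. FBLN5, an elastic fibre protein that binds LOXL1, rose from 1 to 5 counts in WT to 199 to 337, and FBLN1 rose by 2.90 (SE 0.23).

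Copper is loaded onto lysyl oxidases in the secretory pathway by ATP7A. Of 7 copper supply genes, 4 were lower and 2 higher, with a median of -0.53, and ATP7A itself was measured at 0.09 (edgeR adjusted p = 0.722). Its relative ATP7B rose by 2.42 (SE 0.27), and the chaperone gene ATOX1 fell by 1.03 (SE 0.24). SLC31A2 fell by 1.65 (SE 0.39), CCS by 0.55 (SE 0.15), and the importer gene SLC31A1 rose by 0.37 (SE 0.14, edgeR adjusted p = 0.0334).

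Of the hypoxia genes, 9 of 10 factors and regulators were tested, with 5 lower, 2 higher and a median of -0.69 (-0.33 without WT-2), and all 15 target genes were tested, with 13 lower, 1 higher and a median of -1.92. HIF1A, which encodes the oxygen-sensitive factor, had 15708, 7410 and 15924 counts in WT and 3862 to 5936 in the clones. Its log2 fold change was -1.78 (SE 0.19). EPAS1, its relative, fell by 2.60 (SE 0.24), and ARNT2 by 1.81 (SE 0.23), whereas the partner gene ARNT rose by 1.05 (SE 0.13). The glucose transporter gene SLC2A1 fell by 3.69 (SE 0.13, edgeR adjusted p = 1.26e-09), the peptide hormone gene ADM by 5.17 (SE 0.30) and the growth factor gene VEGFA by 2.57 (SE 0.16). EGLN3, a HIF prolyl hydroxylase gene that stands in both hypoxia lists, rose by 0.62 (SE 0.14). Beside these, the enzymes known as hypoxia-induced had log2 fold changes of -5.78 (LOXL4), -4.80 (LOXL2), -2.43 (LOX), -1.42 (P4HA2), -0.60 (P4HA1, -0.92 without WT-2) and 0.17 (PLOD2, -0.15 without WT-2). Of the other enzymes, LOXL1 (-3.26), PLOD1 (-1.89) and PLOD3 (-1.22) fell too, and LOXL3 rose (1.47). Only RNA was measured here, not the HIF1A protein, and a link between the hypoxia genes and the enzymes was not tested.

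Lastly, the genes whose pattern over the 9 libraries was closest to the enzyme with the largest change in each direction were listed, by the root mean square distance between log2 CPM profiles after centring each gene. For LOXL4 these were IGFBP6 (distance 0.25), MICAL2 (0.25) and TRIM25 (0.27), with log2 fold changes of -5.68, -5.70 and -5.85. IGFBP6, an inhibitor of insulin-like growth factors, had 829 to 1069 counts in WT and 14 to 32 in the clones. For LOXL3 they were PARP16 (0.07), ZNF326 (0.10) and the gene ENSG00000288398.1 (0.11), with log2 fold changes of 1.47, 1.46 and 1.48. PARP16 had 81 to 106 counts in WT, 249 to 322 in CS16 and 328 to 427 in CS19, an order of groups that LOXL3 shared. Such likeness follows from picking the genes by their pattern.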

How the data were processed

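The authors prepared stranded libraries from total RNA depleted of ribosomal RNA, trimmed reads with Trimmomatic 0.36, aligned them to GRCh38.p13 with STAR 2.7.2b in 2 passes, and counted read pairs per gene with featureCounts (Subread 2.0.0) on gencode release 38. Both mates had to align, with mapping quality of at least 30, and strand was not used. The deposited values were whole counts, neither normalized nor pooled. Copies made by amplification could not be removed.

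Differences were tested with edgeR 4.0.16 under R 4.3.3 (filterByExpr, TMM, quasi-likelihood test, Benjamini-Hochberg adjustment over all genes tested). Standard errors were obtained from each log2 fold change and its F statistic. The 6 SNAI1-KO libraries were compared with WT, each clone with WT, and CS16 with CS19. The study used DESeq2, here (1.42.0) an alternative. TPM used the exon lengths in the files. GC content came from gencode 38 exons on GRCh38. The scripts were tested on simulated data. Plots were drawn with matplotlib 3.10.9 (Python 3.11.15).

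The 10 genes and the gene lists were chosen with earlier results of these data known. Of the listed markers, 2 are not reported here and were left out of the marker sums. Named genes were the 10 members, SNAI1, the other listed markers, up to 3 genes per list and direction with the smallest adjusted p whose groups did not overlap, and the 3 nearest profiles. ATP7A and the genes overlapping a member were named outside this rule, ATP7A after its value was seen. Replicate numbers are in the labels, but only 1 of 9 same-numbered pairs correlated above 0.1 in its deviations from the group means (-0.21 to 0.19), so they were not treated as pairs.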

Additional observations from a re-analysis of the deposited data

Results flagged for a closer look

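The direct test of CS16 against CS19 passed for 6 of the 10 genes, 3 in each direction, where 14.7% of all genes tested were higher and 12.7% lower in CS16. In the fit of all 3 groups LOX alone passed, and LOXL3 and LOXL4 also lost their calls in DESeq2 and with the replicate block. The log2 differences, CS16 minus CS19, were -1.26 for LOX, -0.36 for LOXL3, -0.65 for LOXL4, 0.41 for PLOD2, 0.52 for PLOD3 and 0.39 for P4HA2. LOX was thus 2.39-fold lower in CS16, and for LOXL3 the rise against WT was the smaller in CS16. SNAI1 itself was lower in CS16 than in CS19 (log2 difference -0.92, SE 0.24, edgeR adjusted p = 0.0106), with 26 to 49 counts against 57 to 94. These are RNA counts, and the study reports no detectable SNAI1 protein in either clone. The part of SNAI1 in the differences of the 6 genes was not tested.

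LOXL2 had 1 library far from the others among the 6 of the clones on the log2 scale. This was CS16-3, at 9.09 CPM, and its gap made up 0.687 of the whole range, above Dixon's critical value for 6 libraries. The range itself was narrow, 9.09 to 10.3 CPM. Chance alone flags about 1 group in 20, and 10 genes were examined.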

How the results depend on the processing

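Of 590 values of the 10 genes under the alternatives, 530 kept their direction and their side of the threshold and 60 did not. The direction changed for PLOD2, LOXL2 and PLOD1, in comparisons where they were not called with all libraries. PLOD2 in SNAI1-KO against WT turned to -0.15 with a correction for GC content, which was chosen after seeing the data, and ranged from -0.15 to 0.40 with 1 library left out. In CS19 against WT it was 0.0043 in DESeq2, 0.028 with upper-quartile normalization, 0.038 without a filter and 0.091 with the replicate block, and -0.35 to 0.20 with 1 library left out. In CS16 against CS19, LOXL2 was 0.030 with the GC correction and -0.067 to 0.022 with 1 library left out. PLOD1 was there 0.018 in DESeq2, 0.010 with RLE normalization, 0.00085 without a filter, 0.00073 with a minimum of 10 counts in 3 libraries, 0.0015 with the replicate block, 0.0033 in the fit of all 3 groups, 0.065 with the GC correction and -0.051 to 0.084 with 1 library left out.

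P4HA1 in SNAI1-KO against WT lost its call in DESeq2 (-0.58, adjusted p = 0.0586), without a filter (-0.50, edgeR adjusted p = 0.0772), with the replicate block (-0.54, edgeR adjusted p = 0.0672) and with 1 library left out in 7 of 9 cases, and gained one in each clone without WT-2 and with the GC correction. PLOD3 in CS16 against WT lost its call with the replicate block (edgeR adjusted p = 0.0614) and without CS16-1 or CS16-2 (0.0615 and 0.095). The number of genes lower in CS16 than in CS19, 3 with all libraries, was 1 in DESeq2, 1 with the replicate block, 1 in the fit of all 3 groups and 1 to 2 with 1 library left out. LOXL4 lost its call there with the GC correction too (edgeR adjusted p = 0.0796). The number higher in CS16 was 0 in the fit of all 3 groups, which includes the spread of the WT libraries. Over all genes, CS16 against CS19 gave 2581 higher and 2233 lower, but 318 and 336 in that fit and 1703 and 1476 with the replicate block. In the copper list 2 instead of 4 genes were lower without a filter, and 1 instead of 2 was higher with the replicate block, with the GC correction and with 1 library left out (1 to 2). No other count of members or listed genes moved by more than 1.5 times. The cause of these shifts was not tested.

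The replicate numbers in the labels did not pair the libraries, and 1 of 9 libraries correlated best with a library of its own number. The counts of LOXL1 in the clones, 10 to 22, limit its precision, and WT-2 widens the spread of WT for several genes, such as LOXL2 (SE 0.32, and 0.08 without it), and hardly for LOXL4 (0.23 and 0.20).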
